A study of Mus musculus with 12 samples.

Results

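Expression of 9 genes that make, use or pass on glutamine and glutamate was followed in colon RNA of mice with and without a myeloid deletion of Glul, on water or on dextran sulfate sodium (DSS). The genes were Glul, Gls2, Glud1, Gpt, Gpt2, Got1, Got2, Asns and Psat1. They were taken by symbol from the normalized count table, where all 9 were found among 40050 genes, and all 9 passed the filter on low values that left 23263 genes for testing. To pass, a gene needed at least 10 normalized counts as its mean of all 12 libraries.

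Glul∆Lyz2 mice carry floxed Glul alleles that are removed where Lyz2 is active, that is in myeloid cells such as macrophages and neutrophils, and the Glul f/f littermates carry the same floxed alleles without that deletion. Each genotype received H2O or DSS, a sulfated sugar polymer given in drinking water as a model of colitis. The 4 groups of 3 libraries are called WT_H2O, KO_H2O, WT_DSS and KO_DSS, where WT stands for f/f littermates and KO for Glul∆Lyz2 mice, and libraries carry the numbers of their titles (1, 2 and 4 for WT_DSS). Whole colon tissue was sequenced, so every other cell type of the knockout colon keeps Glul. In such bulk samples fewer cells of a type and less RNA per cell cannot be told apart. Age, sex, the DSS dose and days, and the segment of colon are not given in the labels, and neither is the number of animals behind a library. The p-values therefore rest on a spread between libraries that may be partly technical.

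Glutamine carries nitrogen between tissues and is a main fuel of cells of the gut lining. Glutamine synthetase makes it from glutamate and ammonia, glutaminases turn it back into glutamate, and glutamate dehydrogenase feeds the carbon of glutamate into the citric acid cycle as 2-oxoglutarate. Transaminases move the amino group of glutamate onto pyruvate, oxaloacetate or phosphohydroxypyruvate and so link glutamate to alanine, aspartate and serine, while asparagine synthetase spends glutamine to make asparagine.

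On DSS both alanine transaminase genes fell and Asns rose. Averaged over the genotypes, Gpt was 7.48-fold lower, Gpt2 2.45-fold lower and Asns 1.53-fold higher on DSS, and these 3 of the 9 genes passed the test. Within the knockout the same 3 genes passed, and within f/f littermates none did. Of all genes tested, 27.6% passed averaged over the genotypes, 10.7% within the knockout and 4.74% within f/f littermates. No gene of the 9 passed in any comparison of the genotypes, Glul included. Values are normalized counts unless stated otherwise. Differences are on the scale of log2(normalized count + 1) with standard errors from limma, and a gene passed at a Benjamini-Hochberg adjusted p under 0.05 over all 23263 genes.

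**Figure D1:**
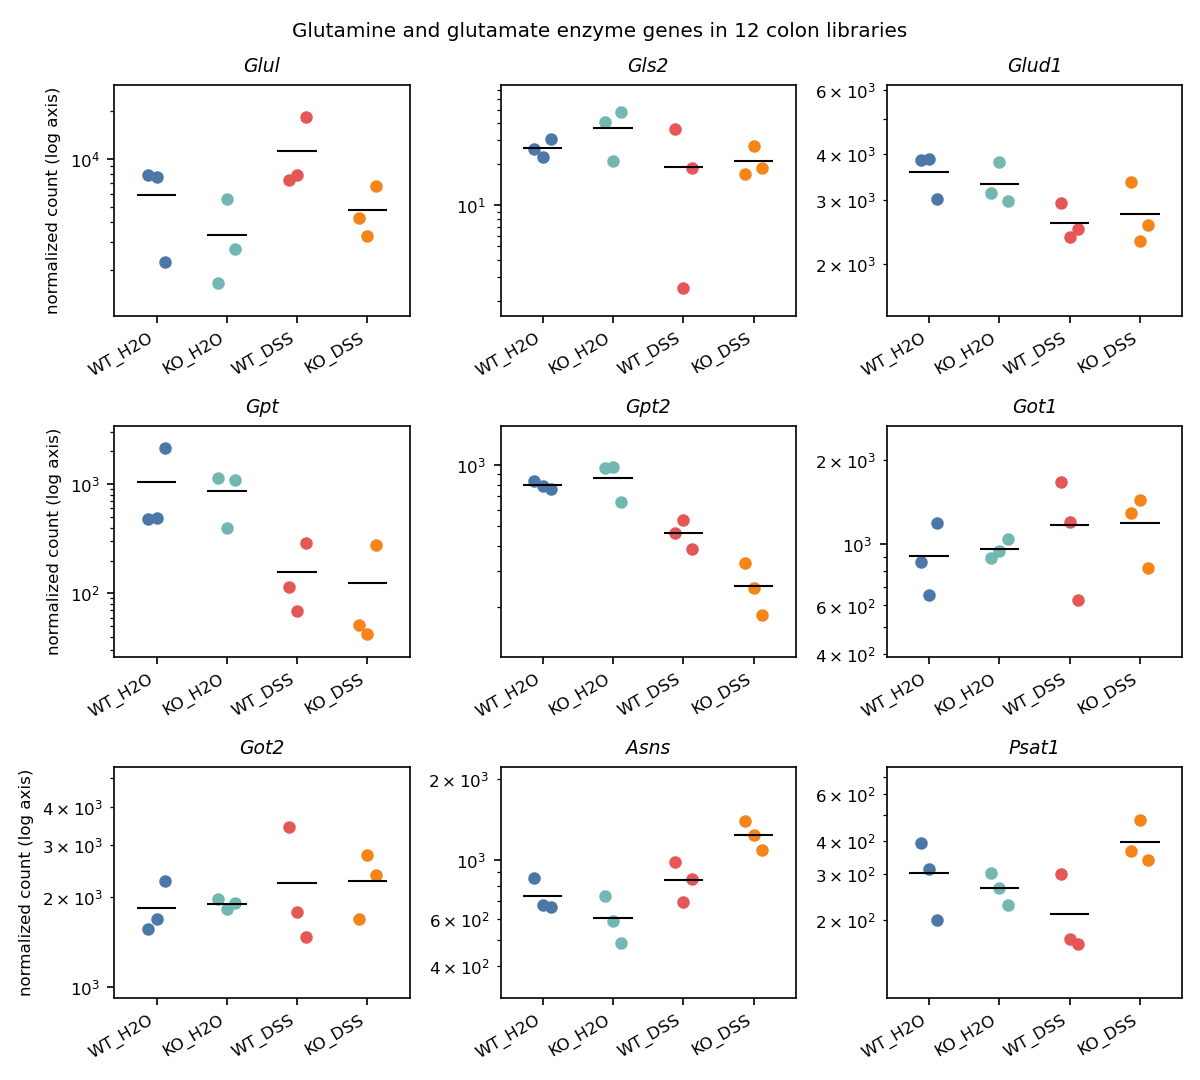
Normalized counts of the 9 genes (log axis, with a range of its own for each gene) in the 12 libraries, in number order within each group, with a line at each group's mean. Gpt and Gpt2 sit lower in all 6 DSS libraries than in all 6 water libraries, and Asns is highest in the 3 KO_DSS libraries, between 1088 and 1391.

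The libraries held 14661803 to 41172418 reads, as read back from the steps of the deposited values, and KO_DSS 2 and 3 were the shallowest at 19767145 and 14661803. Defining markers of the colon were present throughout, with a summed normalized count of 55228 to 232661 for 8 colonocyte markers and of 252933 to 1214945 for 7 goblet cell markers. The colon segment is not labelled, and WT_H2O 3, KO_H2O 1 and KO_H2O 3 stood apart in Hoxa13, a gene of the hind end of the gut, at 23.07, 50.29 and 77.78 against 1061 to 3240 in the 9 others. Results without these 3 libraries are given with the Hox genes. Fat cell markers separated the treatments, with a sum over 8 genes of 3617 to 6744 in the water libraries and 842.5 to 2053 in the DSS libraries. In that list 2 of the 5 tested markers fell on DSS averaged over genotypes. Adipoq and Lep had no read in either DSS group, and Lep had none in KO_H2O either. Of 5 tested neutrophil markers 4 rose in the same average, their list summing to 12.36 to 463.6 on water and 244.6 to 8609 on DSS, with S100a9 and Cxcr2 at 0 in both water groups. Of 12 macrophage markers 3 rose and of 7 goblet cell markers 2 fell, while none of the tested markers of T cells, B and plasma cells, colonocytes, smooth muscle, fibroblasts, enteric glia, enteric neurons or endothelium passed. Within the knockout 4 neutrophil and 2 macrophage markers rose, 1 fat cell marker fell and no goblet cell marker passed. The part of these shifts in the DSS differences was not tested.

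Levels can be set between genes only per length of transcript, in the authors' FPKM (fragments per kilobase, scaled to depth). In WT_H2O the mean FPKM was 55.3 ± 31.0 (SD, n = 3) for Glul and 29.6 ± 5.32 for Glud1. The transaminases Got2, Got1 and Gpt followed at 13.1 ± 1.97, 12.2 ± 3.10 and 11.9 ± 10.5, and Asns stood at 9.34 ± 1.65. Gpt2 at 4.88 ± 0.44, Psat1 at 2.47 ± 0.881 and Gls2 at 0.253 ± 0.0332 closed the order. Glul and Glud1 overlapped in range, and so did neighbours from Got2 down to Asns, whereas Glud1 lay above Got2, and Asns, Gpt2, Psat1 and Gls2 did not overlap one another. The place of Gpt rests on WT_H2O 3, at 24.1 FPKM and within the range of Glud1, since WT_H2O 1 and 2 were at 5.8 and 5.92, below Asns. On DSS in f/f littermates Gpt stood at 1.85 ± 1.40 FPKM, below the 2.84 ± 0.458 of Gpt2, with overlapping ranges.

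Gpt, at chr15:76695716-76699686 on the plus strand, encodes the cytosolic alanine transaminase, which exchanges the amino group between alanine and glutamate. Its normalized counts were 478.3, 495.3 and 2158 in WT_H2O 1, 2 and 3 and 1134, 395 and 1090 in KO_H2O 1, 2 and 3. They were 113.6, 68.92 and 289.1 in WT_DSS 1, 2 and 4 and 50.8, 42.12 and 277 in KO_DSS 1, 2 and 3. All 6 DSS libraries lay below all 6 water libraries, WT_H2O 3 stood far above the other f/f water libraries, and WT_DSS 4 and KO_DSS 3 were the highest of their groups. Gpt fell by 2.90 ± 0.57 averaged over genotypes (adjusted p = 0.0046), and the exact permutation test within genotypes gave p = 0.005, the smallest it can give. In the knockout it fell by 3.21 ± 0.81 or 9.24-fold (adjusted p = 0.0311). In f/f littermates the difference was -2.60 ± 0.81, with groups that did not overlap and an adjusted p of 0.0824.

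Within the water libraries the level of Gpt ran beside the colonocyte markers, as the plot of Gpt against their sum shows. WT_H2O 3, KO_H2O 3 and KO_H2O 1 had the highest sums, at 232661, 140851 and 93240, and the highest Gpt. They are also the libraries that were low in Hoxa13. The other 3 water libraries, WT_H2O 1, WT_H2O 2 and KO_H2O 2, had sums of 57222, 59986 and 55228 and Gpt of 478.3, 495.3 and 395. In the same range of sums, chosen after they were seen, KO_DSS 3 (55829) had 277 and WT_DSS 1 (58546) had 113.6 of Gpt. The other DSS libraries had sums of 66628 to 92717 and Gpt of 42.12 to 289.1, both highest in WT_DSS 4. The part of colonocyte content in the difference of Gpt was not tested.

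**Figure D2:**
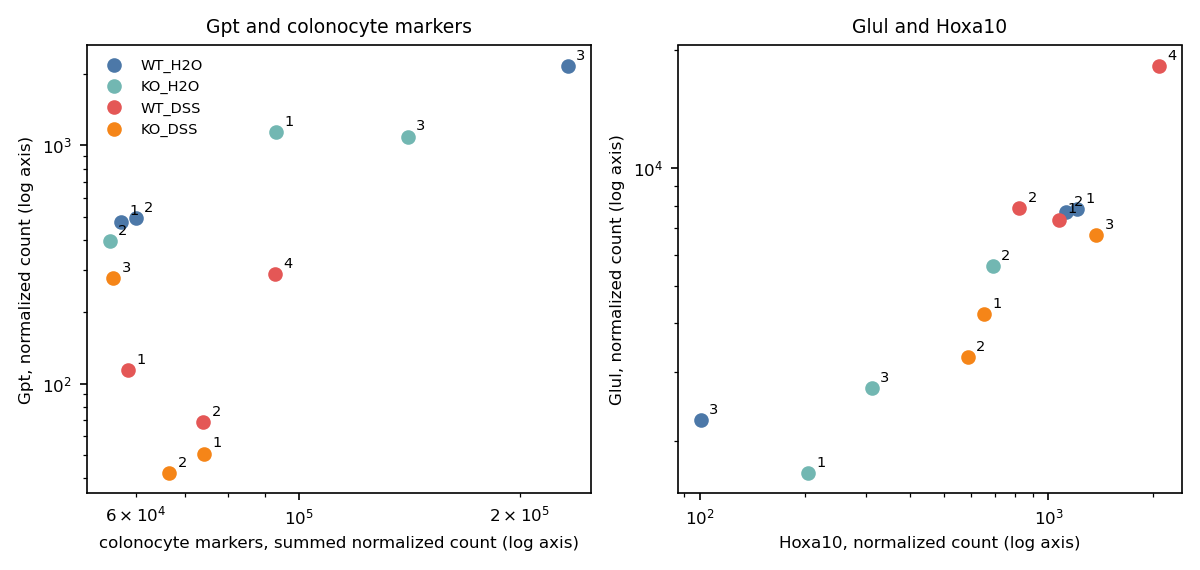
Left, Gpt against the summed normalized count of 8 colonocyte markers, and right, Glul against Hoxa10, each point 1 library (numbers as in the titles) on log axes. Every DSS library has less Gpt than every water library, while Glul and Hoxa10 run together over all 12 libraries.

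Gpt2, at chr8:85492576-85527560 on the plus strand, encodes the mitochondrial alanine transaminase. It held 837.2, 784.2 and 763.1 normalized counts in WT_H2O and 962.5, 978.3 and 658.7 in KO_H2O. On DSS it held 463.5, 536.4 and 387.1 in the f/f libraries 1, 2 and 4 and 329, 247.3 and 181.5 in the knockout libraries. The 4 groups overlapped only between the genotypes on water, and all 3 KO_DSS libraries were lower than every other library. Gpt2 fell by 1.29 ± 0.18 averaged over genotypes (adjusted p = 0.00115; exact permutation p = 0.005). In the knockout it fell by 1.79 ± 0.26 or 3.47-fold (adjusted p = 0.00752), and in f/f littermates the difference was -0.79 ± 0.26 (adjusted p = 0.092). The interaction, the difference in the knockout minus that in f/f littermates, was -1.0 ± 0.37 (95% interval -1.80 to -0.20), with an unadjusted p of 0.0183 and an adjusted p of 1, so the difference between the genotypes did not pass.

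Over all genes tested, 27.6% passed for DSS against water averaged over genotypes, 13% higher and 14.6% lower, so 3 of 9 is close to that background. In the knockout 10.7% of all genes passed, 5% higher and 5.71% lower, against 1 and 2 of the 9 here. In f/f littermates 4.74% passed, 2.16% higher and 2.58% lower, against none of the 9. An unadjusted p under 0.05 was reached there by 3 of the 9 and by 24.8% of all genes. All 6 DSS libraries lay below all 6 water libraries for 6.58% of all genes, Gpt and Gpt2 among them, and above them for 6.24%, with none of the 9. Within f/f littermates groups that did not overlap were lower on DSS for 17.2% of all genes and for Glud1, Gpt and Gpt2 here, and higher for 16.9% with none here. Within the knockout they were lower for 16.7% (Gpt and Gpt2) and higher for 14.7% (Asns and Psat1).

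Asns, at chr6:7675169-7693254 on the minus strand, encodes asparagine synthetase, which takes the amide group of glutamine. The transcription factor ATF4 induces it when amino acids run short, and in human cells acts through an element of the form TGATGNAA near its start. Letters of this form were searched on both strands (reverse complement TTNCATCA) in the RefSeq promoter windows of GRCm38.p6. These windows reach from 250 bases before to 50 bases after a RefSeq start site, which can differ from the start of the gene coordinates given here. For Psat1 the start sites were 15925059 and 15924622, far inside its given span, so the upstream end of that span was not searched. This was the only motif searched. Of 32851 windows 3.97% held a match. Windows existed for 7 of the 9 genes, 8 windows in all. Asns and Got1 held 1 match each, and Glul, Glud1, Gpt2, Got2 and Psat1 held none. Both windows with a match are shown because Asns rose and Got1 did not pass, with the match in capitals. That of Asns, on its own strand, begins 23 bases before the RefSeq start site at 7693209 (chr6:7693160-7693459, minus strand). This site lies inside the gene span given above, which begins at 7693254 on the minus strand, and so does the match. That of Got1, on the opposite strand, begins 102 bases before the start site at 43524605 (chr19:43524556-43524855, minus strand), where its gene span also begins.
Asns promoter: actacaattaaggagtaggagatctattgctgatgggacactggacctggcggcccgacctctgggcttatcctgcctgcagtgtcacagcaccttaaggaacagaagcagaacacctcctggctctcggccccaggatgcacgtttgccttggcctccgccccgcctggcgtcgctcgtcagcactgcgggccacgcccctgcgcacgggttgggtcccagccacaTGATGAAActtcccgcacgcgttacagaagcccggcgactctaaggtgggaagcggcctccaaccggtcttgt
Got1 promoter: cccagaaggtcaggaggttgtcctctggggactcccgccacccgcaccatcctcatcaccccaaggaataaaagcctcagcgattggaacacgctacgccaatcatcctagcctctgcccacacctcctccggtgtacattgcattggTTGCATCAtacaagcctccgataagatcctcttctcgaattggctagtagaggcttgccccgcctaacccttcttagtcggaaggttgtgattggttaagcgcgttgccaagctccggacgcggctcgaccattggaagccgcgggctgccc
A match of letters describes the sequence and is neither a measured binding site nor a cause.

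Asns held 853.9, 678.9 and 669.1 normalized counts in WT_H2O and 733.6, 590.2 and 489.7 in KO_H2O. It held 984.2, 693.4 and 844.1 in WT_DSS 1, 2 and 4 and 1391, 1231 and 1088 in KO_DSS. The 3 KO_DSS libraries were above every other library, while the f/f libraries on DSS and on water overlapped. Asns rose by 0.62 ± 0.16 averaged over genotypes (adjusted p = 0.0143; exact permutation p = 0.015). In the knockout it rose by 1.04 ± 0.22 or 2.06-fold (adjusted p = 0.0175), against a difference of 0.19 ± 0.22 in f/f littermates (adjusted p = 0.633). The interaction was 0.85 ± 0.31 (95% interval 0.17 to 1.54) with an unadjusted p of 0.0188 and an adjusted p of 1.

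Psat1, at chr19:15904678-15947337 on the minus strand, encodes phosphoserine aminotransferase, which uses glutamate in the synthesis of serine and is also induced by ATF4. Its normalized counts were 392.3, 313.7 and 201.1 in WT_H2O and 301.8, 264.8 and 228.5 in KO_H2O. On DSS they were 300.3, 170.2 and 163.1 in f/f littermates and 366.9, 478.3 and 339.6 in the knockout. KO_DSS lay above KO_H2O and above WT_DSS without overlap, but WT_H2O 1 reached into its range. Psat1 differed by 0.57 ± 0.32 between DSS and water in the knockout (adjusted p = 0.253) and by -0.52 ± 0.32 in f/f littermates (adjusted p = 0.335). Averaged over genotypes these gave 0.02 ± 0.23, with a 95% interval of -0.47 to 0.51. The interaction of 1.09 ± 0.45 had an unadjusted p of 0.0329 and an adjusted p of 1.

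Within the knockout, leaving out 1 library could end the calls for Gpt and Asns while their differences changed little. Gpt did not pass without KO_H2O 1 (-2.95, adjusted p = 0.128), KO_H2O 3 (-2.97, 0.109), KO_DSS 1 (-2.85, 0.0732) or KO_DSS 2 (-2.72, 0.102), against -3.21 with all libraries. Asns did not pass without KO_H2O 1 (1.19, adjusted p = 0.058), KO_H2O 3 (0.90, 0.0793) or KO_DSS 2 (1.04, 0.0505), against 1.04 with all. These fits have fewer libraries in the groups compared. The fall of Gpt2 in the knockout, and all 3 calls averaged over genotypes, passed with any 1 library left out, though not all with 3 left out together, as given with the Hox genes.

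**Figure D3:**
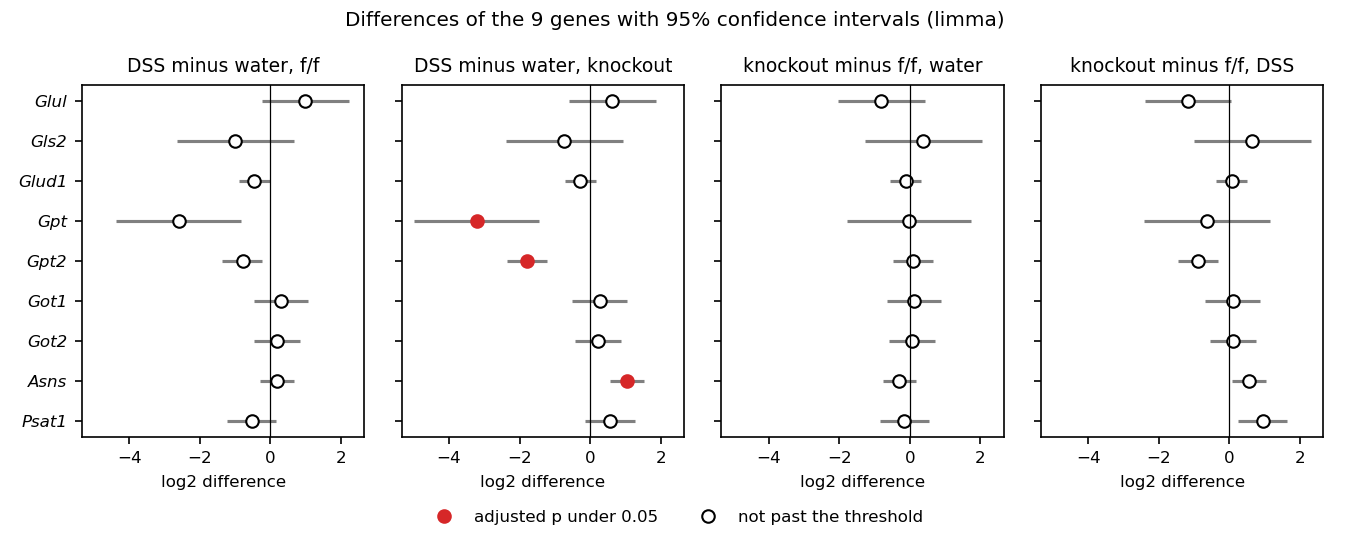
Log2 differences of the 9 genes with 95% confidence intervals from limma for DSS minus water in each genotype and knockout minus f/f on each treatment (n = 3 libraries per group), red where the adjusted p is under 0.05. The 3 red points are Gpt (-3.21), Gpt2 (-1.79) and Asns (1.04) in the knockout.

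Glul, at chr1:153899944-153909723 on the plus strand, encodes glutamine synthetase and is the targeted gene. Its normalized counts were 7852, 7709 and 2261 in the f/f water libraries and 1655, 5618 and 2725 in the knockout ones. On DSS they were 7372, 7895 and 18267 in f/f libraries 1, 2 and 4 and 4225, 3273 and 6723 in the knockout. WT_H2O 3 lay within the range of the knockout on water, WT_DSS 4 was the highest of all, and the genotypes overlapped on water but not on DSS. The knockout differed from f/f littermates by -0.81 ± 0.56 on water (adjusted p = 1) and by -1.17 ± 0.56 on DSS (adjusted p = 0.952). Averaged over treatments the difference was -0.99 ± 0.40 with an adjusted p of 0.953 and an exact permutation p of 0.06 within treatments. DSS against water gave 0.81 ± 0.40 averaged over genotypes (adjusted p = 0.151). Total colon Glul, with Glul of all other cells included, did not by itself separate the labelled genotypes on water.

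The genes whose log2 levels ran most like Glul over the 12 libraries, among 13577 named genes with a mean of at least 50, were Hoxa10 and Hoxa9, each with a Pearson r of 0.907. Mob4 (0.883), Gmpr2 (0.880) and Hoxa7 (0.857) followed. Without KO_H2O 1 and WT_DSS 4, the libraries farthest from the median of Glul, these were 0.891, 0.874, 0.805, 0.883 and 0.820 over 10 libraries. All genes share the differences in depth and tissue make-up between the libraries, and the 5 were picked for likeness, so these are descriptions. Hox genes are used in development to set position along the body and gut axis, and those numbered 13 mark the hind end of the gut. Hoxa10 stood at 1207, 1121 and 100.5 in WT_H2O and 203.8, 690.9 and 311.1 in KO_H2O, so that WT_H2O 3, KO_H2O 1 and KO_H2O 3 were low in it as in Glul. On DSS it stood at 1075, 824.6 and 2077 in WT_DSS 1, 2 and 4 and 652.3, 587 and 1373 in KO_DSS, highest in WT_DSS 4 as Glul was. The 3 water libraries low in Hoxa10 are the same 3 that were low in Hoxa13. Other genes numbered 13 set different libraries apart. Hoxb13 stood at 2840 in KO_H2O 2, at 2513 and 2409 in WT_DSS 1 and 2 and at 1813 and 2203 in KO_DSS 1 and 2, against 0 to 353.7 in the rest. Hoxd13 was 0 in WT_H2O 1 and 2, KO_H2O 1 and WT_DSS 4 and highest in WT_DSS 1 and KO_DSS 1 and 2, at 2016, 2511 and 6423. Some Hox genes ran opposite to Glul, with an r of -0.735 for Hoxd9. Overlapping transcripts of the Hox clusters make these counts uncertain, since strand use is unknown.

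Without WT_H2O 3, KO_H2O 1 and KO_H2O 3 together, an alternative chosen after seeing these data, the difference of Glul between DSS and water averaged over genotypes was 0.04 in place of 0.81. Gpt2 still passed averaged over genotypes (-1.41, adjusted p = 0.0394), while Gpt at -2.05 (adjusted p = 0.129) and Asns at 0.59 (adjusted p = 0.125) did not. In the knockout, where 1 water library then remained and is assumed to vary like the others, the values were -2.21 for Gpt, -1.99 for Gpt2 and 1.06 for Asns and none passed (adjusted p = 0.569, 0.34 and 0.411). Over all genes limma then called 599 averaged over genotypes, and 0 in the knockout, where 2175 had an unadjusted p under 0.05. The knockout against f/f difference of Glul on DSS rests on none of these libraries. That difference does include WT_DSS 4, the highest of all libraries in Glul (18267) and in Hoxa10 (2077).

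With the mean level of the 11 Hox genes of groups 9 to 13 as a covariate, likewise chosen after seeing the data, the fall of Gpt2 passed in the knockout (-2.05, adjusted p = 0.0132) and averaged over genotypes (-1.59, adjusted p = 0.00612). Gpt no longer passed, at -1.87 (adjusted p = 0.0688) and -1.37 (0.0778). Asns did not pass either, at 0.97 (adjusted p = 0.0581) and 0.53 (0.137). The covariate itself was higher in 4 of 6 DSS libraries, between 0.81 and 2.17, than in 5 of 6 water libraries, between -1.79 and -0.78, and the 11 genes did not all move together. The part of colon segment in any difference was not tested.

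Glud1, at chr14:34310727-34345265 on the plus strand, encodes the mitochondrial glutamate dehydrogenase. It held 3852, 3874 and 3010 normalized counts in WT_H2O and 3136, 3799 and 2974 in KO_H2O. On DSS it held 2936, 2369 and 2486 in f/f littermates and 3357, 2311 and 2565 in the knockout. The f/f groups did not overlap between the treatments, and in the knockout KO_DSS 1 reached into the water range. The difference averaged over genotypes was -0.37 ± 0.14 (adjusted p = 0.0741; exact permutation p = 0.025), with a 95% interval of -0.68 to -0.06. Without KO_DSS 1 it passed at -0.45 (adjusted p = 0.039).

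The aspartate transaminases, which run the malate-aspartate shuttle of reducing power between cytosol and mitochondria, did not pass in any comparison. Got1 (cytosolic, chr19:43499752-43524605, minus strand) ranged from 656.2 to 1186 normalized counts on water and from 628.4 to 1665 on DSS. Got2 (mitochondrial, chr8:95864134-95888547, minus strand) ranged from 1568 to 2259 and from 1475 to 3421. Their treatments overlapped, and both were most spread in WT_DSS, where library 1 was highest and library 4 lowest. DSS against water averaged over genotypes gave 0.29 ± 0.25 for Got1 (95% interval -0.26 to 0.83) and 0.21 ± 0.21 for Got2 (-0.25 to 0.68). The table also lists a processed pseudogene, Got2-ps1, at a mean of 31.75, which could share reads with Got2.

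Gls2, at chr10:128194457-128210004 on the plus strand, encodes the liver-type glutaminase and was close to the limit of detection, with 3 to 50 reads a library. Its normalized counts were 25.9, 22.7 and 30.49 in WT_H2O and 40.75, 21.1 and 48.01 in KO_H2O. On DSS they were 36.17, 2.491 and 18.94 in f/f littermates and 16.93, 27.18 and 18.78 in the knockout. WT_DSS 2, with 3 reads, was the lowest and the treatments overlapped. DSS against water averaged over genotypes was -0.86 ± 0.53, with a 95% interval of -2.02 to 0.31, which holds both a 2-fold lower level and no difference. Gls2 overlaps Spryd4 on the other strand, whose mean count of 216.4 is larger than its own.

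Between the genotypes none of the 9 passed on water, on DSS or averaged, and 0% of all genes passed in each of these comparisons and in the interaction. On water all 9 overlapped between the genotypes, against 9.45% of all genes that did not, and none had an unadjusted p under 0.05. On DSS 4 of the 9 did not overlap. Glul and Gpt2 were lower in the knockout, where 4.08% of all genes were lower without overlap, and Asns and Psat1 were higher, where 2.99% were. Gpt2 differed by -0.90 ± 0.26 (unadjusted p = 0.0047), Psat1 by 0.94 ± 0.32 (0.0121) and Asns by 0.56 ± 0.22 (0.0262), each with an adjusted p of 0.951. For 3 against 3 libraries the exact permutation test cannot go below 0.1, which all 4 reached. Over all genes 1215 had an unadjusted p under 0.05 on DSS, 757 on water, 1131 averaged over treatments and 640 in the interaction. These comparisons share libraries with those of DSS against water, and the KO_DSS libraries that set Gpt2, Asns and Psat1 apart are the same in both.

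Of 65 genes listed around the 9 enzymes, 58 were tested, and on DSS averaged over genotypes 3 rose and 14 fell, where 13% of all genes rose and 14.6% fell. The change was most frequent among enzymes that connect glutamate with proline, ornithine and GABA, where 7 of 12 tested genes fell and none rose, with a median difference of -1.07 against -0.07 over all genes. All lists were chosen with earlier results of these data known, so these counts are descriptions and not a test of the lists. Genes of the lists were not followed in the alternative fits. Oat (ornithine aminotransferase) fell from 3617 ± 699 in f/f littermates and 3128 ± 87.3 in the knockout on water to 1557 ± 176 and 1581 ± 224 on DSS, a difference of -1.10 ± 0.14 (adjusted p = 0.00078). Pycrl, a pyrroline-5-carboxylate reductase of proline synthesis, fell by 1.57 ± 0.20 (adjusted p = 0.000838), and Pycr1, a mitochondrial one, by 2.12 ± 0.35 (adjusted p = 0.00207). Oat and Pycrl passed in both genotypes taken alone.

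Nags, which makes N-acetylglutamate, the activator of the urea cycle, had no read in the 3 KO_DSS libraries or in WT_DSS 1 and 2. It stood at 124.4 in WT_DSS 4 and between 10.02 and 824.9 on water. Taking 3 reads in each library as the limit that a count of 0 allows, KO_DSS was at least 89.4-fold below the KO_H2O mean of 333.5. The adjusted p from limma was 0.0306 for DSS in the knockout and 0.00363 averaged over genotypes. KO_H2O 2, at 10.02, was far below the other water libraries, so the fold holds for the mean and not for each library. The water libraries highest in Nags were WT_H2O 3, KO_H2O 1 and KO_H2O 3, at 824.9, 587 and 403.3. They are the libraries that were low in Hoxa13, and the part of colon segment in the fall of Nags was not tested.

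**Figure D4:**
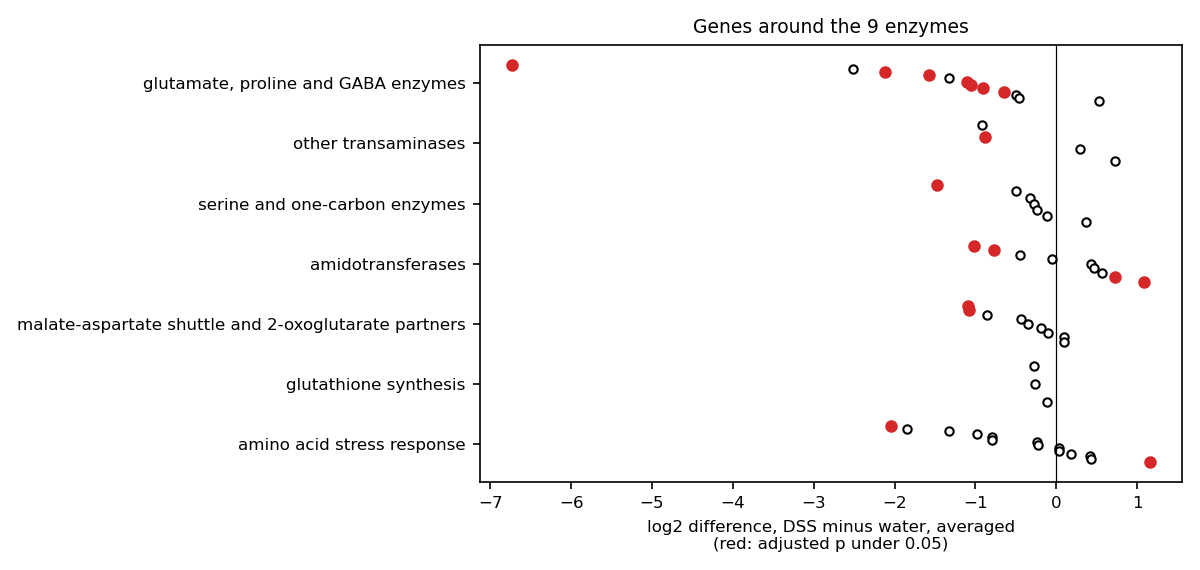
Log2 differences for DSS minus water averaged over genotypes (6 libraries against 6) of the 58 tested genes in 7 lists around the 9 enzymes, each point 1 gene, red where the adjusted p is under 0.05. In the top list 7 of 12 genes are red and all of these are below 0; the leftmost is Nags, whose fitted value of -6.73 depends on the pseudocount.

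In the other lists the changes were fewer and went both ways. Among glutamine amidotransferases, which spend glutamine as Asns does, Gfpt1 of the hexosamine pathway rose by 0.72 ± 0.22 (adjusted p = 0.0287) and Ppat of purine synthesis by 1.08 ± 0.36 (adjusted p = 0.0427). Nadsyn1 of NAD synthesis fell by 1.02 ± 0.22 (adjusted p = 0.00753) and Cad of pyrimidine synthesis by 0.77 ± 0.19 (adjusted p = 0.0137), so 2 of 9 rose and 2 fell. Of the partners of the aspartate transaminases 2 of 9 fell, the carrier of 2-oxoglutarate Slc25a11 by 1.08 ± 0.21 (adjusted p = 0.0047) and the mitochondrial isocitrate dehydrogenase Idh2 by 1.09 ± 0.17 (adjusted p = 0.00161). Bcat2, the mitochondrial transaminase of branched-chain amino acids, was the 1 of 4 other transaminases that fell (-0.88 ± 0.20, adjusted p = 0.00873). Phgdh, the enzyme just before Psat1 in serine synthesis, was the 1 of 7 genes of its list that fell (-1.48 ± 0.43, adjusted p = 0.0243), from 306.1 ± 33.1 and 337.2 ± 73.7 on water to 98.96 ± 30.03 and 182.6 ± 134 on DSS in f/f and knockout. None of 3 genes of glutathione synthesis passed.

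Asns and Psat1 belong to the genes that ATF4 induces, and of 14 further genes of that response 1 rose and 1 fell. Slc7a11, the cystine and glutamate exchanger, rose by 1.16 ± 0.34 (adjusted p = 0.028), and Sesn2, an inhibitor of mTORC1 signalling, fell by 2.05 ± 0.39 (adjusted p = 0.00403). The median of the list was -0.24 against -0.07 over all genes, and Atf4 itself differed by 0.03 ± 0.17 (adjusted p = 0.923). Within the knockout alone, where Asns rose, none of the 14 passed. These are transcript levels, ATF4 protein and its activity were not measured, and the part of ATF4 in the rise of Asns was not tested. Over all 7 lists 8 of 58 fell and none rose in the knockout, where 5.71% of all genes fell and 5% rose. In f/f littermates 6 of 58 fell and none rose, where 2.58% fell and 2.16% rose, and none of the 58 passed between the genotypes.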

How the data were processed

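Colon RNA of 12 libraries in 4 groups of 3 was sequenced on an Illumina HiSeq system, per the labels' protocols. The deposited main table holds log2 normalized counts, per the labels' descriptions. Its values have the form log2(count divided by a library factor, plus 1). Of the lower nonzero values, 100% were whole multiples of 1 read within a tolerance of 0.01, and higher values were not checked. All values were rounded to whole reads, which gave the reads per library. The authors also deposited log2(FPKM + 1) values, used here for levels per length and as an alternative. Per the submitters' processing notes, the tool was STAR, with GRCm38 and mm10 as builds. The counter, strand use, annotation and versions were not given in the sources used here. Gene coordinates are those of the GENCODE annotation of GRCm38, by gene identifier.

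The test was limma 3.58.1 (R 4.3.3) with a mean per group on log2(normalized count + 1) for genes with a mean of at least 10, all 12 libraries in 1 fit (8 residual and 3.86 prior degrees of freedom, eBayes with trend), with Benjamini-Hochberg adjustment over all genes of a comparison. This scale understates changes of low genes. Because the deposited values are on a log2 scale, no count model was used. Each of the 9 genes also had an exact permutation test (two-sided), which cannot go below 0.1 for 3 against 3 libraries or 0.005 within strata. The text names all 9 genes in every comparison, up to 4 called genes of each list by smallest p, and the 5 genes most like Glul by Pearson r among named genes with a mean of at least 50. Atf4, Hoxa13, Hoxb13, Hoxd13 and Hoxd9 were named after their values were seen. The 9 genes and all lists were chosen with earlier results of these data known. Alternatives were the pseudocount, the filter, the FPKM table, upper-quartile scaling, sample weights, the replicate number as a block, each library left out, and, added after the data were seen, a Hox covariate and leaving out 3 libraries low in Hoxa13.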

Additional observations from a re-analysis of the deposited data

How the results depend on the processing

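For the 9 genes, no difference that passed in any of these fits had the opposite sign in another; other genes were followed only as counts. The number of the 9 genes called for DSS against water averaged over genotypes was 3 in every alternative except the fit without KO_DSS 1, with 4, and both alternatives chosen after seeing the data, the Hox covariate and the fit without the 3 libraries low in Hoxa13, each with 1. In the knockout it was 3 in all alternatives that kept the 12 libraries except the Hox covariate, with 1, 0 without the 3 libraries low in Hoxa13, and between 1 and 3 with 1 library left out. In f/f littermates it was 0, but 2 with sample weights (Gpt2, adjusted p = 0.0314; Glud1, adjusted p = 0.0474) and between 0 and 1 with 1 library left out (Gpt, adjusted p = 0.0459 without KO_DSS 3). Between genotypes and in the interaction it was 0 throughout. Same-numbered libraries correlated between -0.183 and 0.238 in their deviations from the group means, and other pairs from different groups between -0.265 and 0.273. No pairing by number showed, though with groups of 3 this cannot exclude one. The fit with the replicate block called 0 of the 9 genes in f/f littermates, 3 in the knockout and 3 averaged. Over all genes the replicate block called 46, 1411 and 4710 in place of 1103, 2490 and 6419. Number 4 occurs only in WT_DSS, so the block fits WT_DSS 4 exactly and that library adds nothing to the differences. The effects of the block and of losing this library cannot be told apart. Sample weights called 3558, 4936 and 8558, no filter 664 in f/f littermates, the Hox covariate 174, 870 and 1889, and the fit without the 3 libraries 0, 0 and 599, with 4470, 2175 and 5327 at an unadjusted p under 0.05. Leaving out 1 library gave 14 (without WT_H2O 1) to 1566, 94 (without KO_H2O 1) to 3333, and 4150 (without KO_H2O 1) to 6903. Between genotypes these counts stayed between 0 and 16. Groups of 3, and libraries of 14661803 and 19767145 reads in KO_DSS, limit what can be seen, most of all for Gls2. Without WT_DSS 2 its difference in f/f littermates was 0.00 in place of -0.99.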
